A study of Mus musculus with 6 samples.

Results

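The 10 genes described here cover adipocyte identity and the handling of insulin and glucose: the transcription factor genes Pparg, Cebpa and Cebpb, the insulin signalling and glucose uptake genes Insr, Irs1 and Slc2a4, and the metabolic genes Pck1, Gpd1, Car3 and Aqp7. They were set as a list of names with earlier results of these data known, and each is read from the probe set that names only that gene, taking the one with the highest mean over the 6 arrays where there were several. All 10 had such a probe set, out of 19752 genes with one, and 1 of them, Insr, had 2. RNA from whole aortas of 20-week-old mice on the C57BL/6 background was hybridised to 6 Affymetrix whole-transcript arrays, 1 per sample: 3 of DKO mice, with the genotype apoe-/- adora1-/-, and 3 of ApoE-KO mice, with the genotype apoe-/-. Both groups therefore lack Apoe, the apolipoprotein E gene whose loss makes mice prone to atherosclerosis, and they differ in Adora1, the adenosine A1 receptor gene, which is not analysed here. The study's own description names the comparison mice as lacking Adora1, whereas every label of those samples names Apoe, and the sample labels were followed. Sex, the tissue left on the vessel and whether animals were pooled are not given in the sources used here, and no label says that replicates are separate animals, so p-values measure the spread between these samples.

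White adipocytes are kept in their differentiated state by PPARG and C/EBP alpha, nuclear factors that sustain each other's expression, while C/EBP beta acts early in differentiation. Insulin binds the receptor encoded by Insr, which phosphorylates the adaptor IRS1, and the signal brings the glucose transporter GLUT4, encoded by Slc2a4, to the cell surface of fat and muscle. The aorta is surrounded by perivascular fat, and the adenosine A1 receptor is known in adipocytes as an inhibitor of lipolysis.

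Of these genes, 6 have a promoter window in the RefSeq-derived table of build GRCm38.p6, which covers 250 bases before to 50 after a gene's start: Pparg with 3 windows, Aqp7 with 2, and Cebpa, Cebpb, Irs1 and Pck1 with 1 each. The 4 windows shown belong to the 2 factor genes that were lower in DKO in every replicate number, Pparg and Cebpa, and to the 2 genes with the most alike levels over the arrays, Pck1 and Aqp7. Capitals mark matches on either strand to 5 motifs: TATAAA, the TATA box; CCAAT, the CCAAT box; AGGTCA, the half-site that nuclear receptors such as PPARG bind; ACGTCA, the core of the cAMP response element; and TTGCNNAA, a C/EBP-type sequence. The Pparg window is that of the gamma-2 isoform, the form made in fat, at chr6:115421816-115422115 on the plus strand. The Cebpa window lies at chr7:35119043-35119342 (plus strand), the Pck1 window at chr2:173152823-173153122 (plus strand) and the Aqp7 window, 1 of 2, at chr4:41047913-41048212 (minus strand).
Pparg: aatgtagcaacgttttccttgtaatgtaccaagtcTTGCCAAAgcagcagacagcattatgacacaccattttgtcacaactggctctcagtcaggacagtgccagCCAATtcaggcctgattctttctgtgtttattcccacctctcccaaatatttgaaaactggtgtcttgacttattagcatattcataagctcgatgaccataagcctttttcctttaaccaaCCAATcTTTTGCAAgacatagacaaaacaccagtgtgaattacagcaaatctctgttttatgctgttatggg
Cebpa: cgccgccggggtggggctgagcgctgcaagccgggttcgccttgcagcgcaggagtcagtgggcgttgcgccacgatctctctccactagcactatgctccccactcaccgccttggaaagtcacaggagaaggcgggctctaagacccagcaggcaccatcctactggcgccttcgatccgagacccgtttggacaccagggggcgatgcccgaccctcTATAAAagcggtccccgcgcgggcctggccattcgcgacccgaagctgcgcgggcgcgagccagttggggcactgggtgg
Pck1: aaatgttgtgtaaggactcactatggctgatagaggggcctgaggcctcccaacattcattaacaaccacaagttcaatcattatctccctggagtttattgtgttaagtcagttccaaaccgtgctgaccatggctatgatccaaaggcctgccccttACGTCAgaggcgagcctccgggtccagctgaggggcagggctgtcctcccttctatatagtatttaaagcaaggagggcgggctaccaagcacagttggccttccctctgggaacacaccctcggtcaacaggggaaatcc
Aqp7: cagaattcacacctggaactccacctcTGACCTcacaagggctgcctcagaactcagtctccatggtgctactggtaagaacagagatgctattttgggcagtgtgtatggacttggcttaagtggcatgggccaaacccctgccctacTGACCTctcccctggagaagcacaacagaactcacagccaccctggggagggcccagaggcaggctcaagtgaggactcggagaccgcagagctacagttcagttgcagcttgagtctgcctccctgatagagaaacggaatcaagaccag

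In the Pparg window the capitals are 2 CCAAT boxes and 2 matches to the C/EBP-type sequence, at -215 and -16 from the start. A match to TTGCNNAA stands in 10.8% of the 32851 windows of the table and CCAAT in 37.4%. The Cebpa window holds a TATA box at -30, a motif found in 13.6% of windows. The Pck1 window holds ACGTCA at -91, found in 7.51%, and the Aqp7 window holds AGGTCA on the strand opposite to the letters shown (TGACCT as printed), at -223 and -101, found in 16.3%. The matches shown share no bases with each other, and they describe the letters of these windows only.

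Car3, Gpd1, Pparg and Cebpa stood lower in DKO than in ApoE-KO in every replicate number, as did Slc2a4 with a smaller mean difference, and the other 5 genes had no single direction. Car3, the gene of a cytosolic carbonic anhydrase that fat and muscle make in large amounts, was the only one of the 10 that passed when all 6 arrays were fitted, and it did so only with arrays paired by replicate number. Without both replicate 1 arrays, Pparg also passed in the paired fit, where 415 probe sets passed against 44 with all arrays. Pparg did not pass without both replicate 2 or both replicate 3 arrays. The mean was lower in DKO for 10 of 10 genes, where 50.7% of all probe sets had a lower mean in DKO, and the median difference was -0.22 (log2), against -0.0024 over all 25254 probe sets. Without DKO replicate 2 that median was -0.44. Levels are log2 intensities, and each gene's level is compared only with itself. The genes share arrays and several share a cell type, so the 10 directions are not independent.

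Differences were tested with limma, fitted over all 25254 probe sets with Benjamini-Hochberg adjustment and a threshold of 0.05. Without pairing 0 of the 10 genes passed (0% of all probe sets, with 1419 of them, 5.62%, at an unadjusted p under 0.05, among which were Cebpa, Gpd1 and Car3), and adjusted p-values of the 10 ran from 0.839 to 0.958. With the replicate number as a block, 1 of the 10 passed, Car3, against 0.174% of all probe sets. Same-numbered arrays of the groups deviated together, with correlations of 0.60, 0.50 and 0.64 over all probe sets, so the paired values are given beside the unpaired ones where they change the call. Lower in DKO in all 3 replicate numbers were 5 of 10 genes (19.1% of all probe sets), and 1 of 10, Gpd1, had groups that did not overlap with DKO lower (6.47% of all probe sets).

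**Figure D1:**
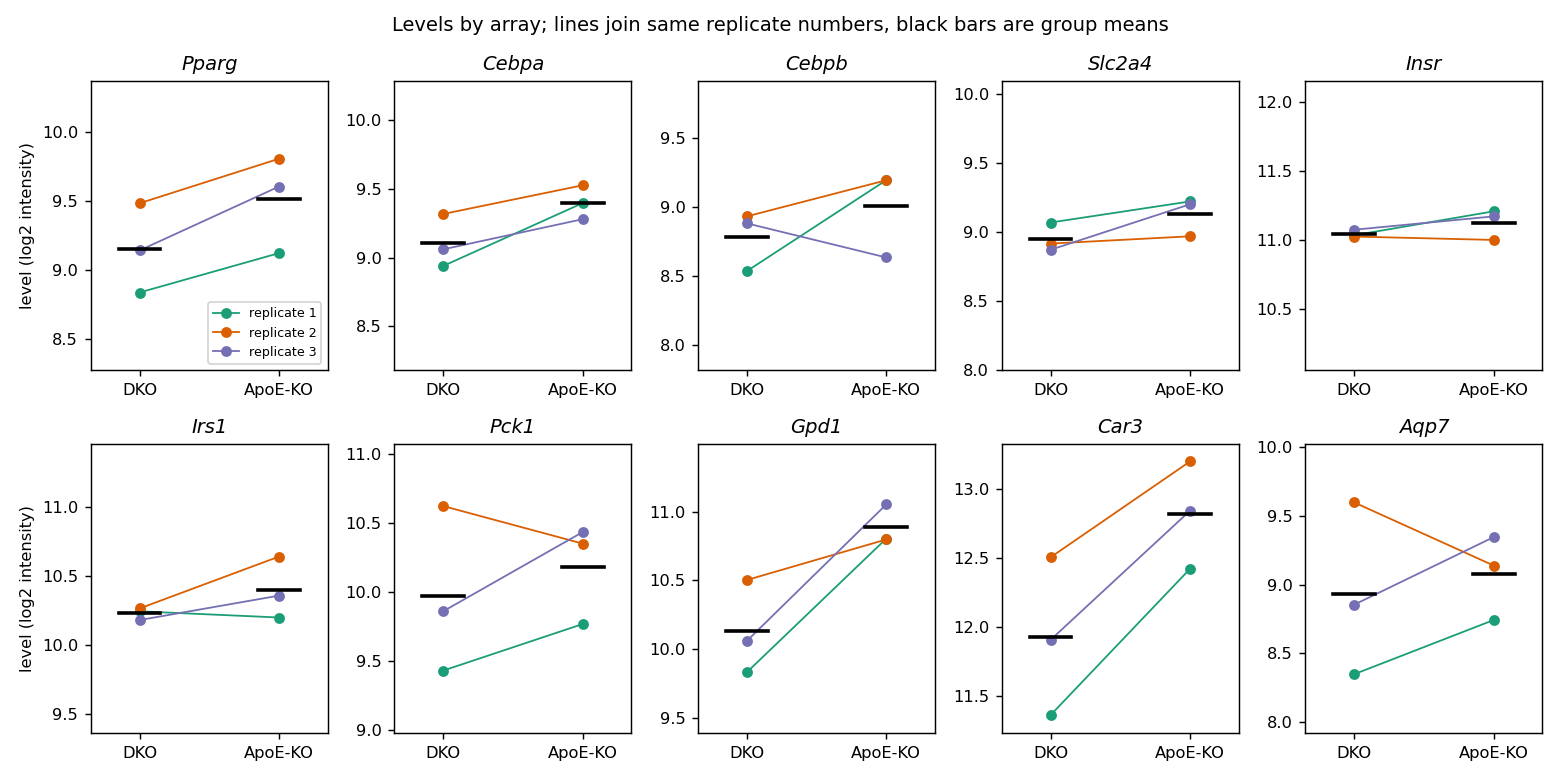
Level of each of the 10 genes (log2 intensity, vertical axis) in DKO and ApoE-KO aortas, 3 arrays each; lines join arrays of the same replicate number, black bars are group means, and every panel spans the same height. The 3 Car3 and the 3 Pparg lines all lie lower at DKO with similar steps, Gpd1 is the gene whose groups do not overlap, and the replicate 2 lines of Pck1 and Aqp7 run opposite to the other two.

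Of the transcription factor genes, Pparg, which encodes the master regulator of adipocyte differentiation, read 8.84, 9.48 and 9.14 in DKO replicates 1 to 3, against 9.12, 9.81 and 9.61 in ApoE-KO replicates 1 to 3. The groups overlap because replicate 1 was low and replicate 2 high in both genotypes, while within each number DKO was lower. Pparg averaged 9.15 ± 0.32 in DKO and 9.51 ± 0.35 in ApoE-KO (SD, n = 3 each). Its differences within the replicate numbers were -0.29, -0.32 and -0.46, a mean of -0.36 ± 0.09 (SD over 3 pairs). This did not pass with the replicate block (limma, adjusted p = 0.0827; 95% interval -0.51 to -0.20) or without it (adjusted p = 0.866; interval -0.87 to 0.16). Without both replicate 1 arrays it passed with the block (-0.39, limma, adjusted p = 0.0483), a fit in which 415 probe sets passed. With the block it did not pass without both replicate 2 arrays (-0.375, adjusted p = 0.474) or both replicate 3 arrays (-0.30, adjusted p = 0.218). Unpaired its difference was -0.20 without DKO replicate 1 and -0.55 without ApoE-KO replicate 1.

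Cebpa, which encodes the factor that maintains the mature adipocyte together with PPARG, read 8.94, 9.32 and 9.06 in DKO, against 9.40, 9.53 and 9.28 in ApoE-KO. DKO replicates 1 and 3 lay below all ApoE-KO arrays, and DKO replicate 2 lay above ApoE-KO replicate 3. The differences were -0.46, -0.21 and -0.22, with a mean of -0.29 ± 0.14 (SD over 3 pairs; limma with the block, adjusted p = 0.145). Cebpb, the early adipogenic and inflammation-responsive factor, read 8.53, 8.93 and 8.88 in DKO, against 9.19, 9.19 and 8.63 in ApoE-KO. Its differences ran from -0.66 in replicate 1 through -0.26 in replicate 2 to 0.25 in replicate 3, so the genotypes had no common order (limma with the block, adjusted p = 0.521; without it 0.898).

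The 26 other genes of the fixed list of adipogenic transcription factors and their regulators, all measured, had a median difference of -0.034, with -0.089 when DKO replicate 3 was left out and 0.031 when ApoE-KO replicate 2 was. Lower in DKO were 17 and higher 9, and 0 passed in either direction without or with the block (0.0792% of all probe sets passed as lower with it and 0.095% as higher). The 4 with the smallest unadjusted p did not share a direction. Egr2, an early-response zinc finger factor of adipogenesis, differed by 0.38 and Zfp467, a zinc finger cofactor, by 0.26. Egr2 passed with the block without both replicate 1 arrays (0.47, adjusted p = 0.0353), a fit in which 415 probe sets passed. Wnt10b, a secreted inhibitor of adipogenesis, differed by -0.25 and Dlk1, the preadipocyte factor, by -0.17.

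Among the insulin and glucose genes, Insr, the insulin receptor gene, read 11.03, 11.02 and 11.07 in DKO, against 11.21, 11.00 and 11.17 in ApoE-KO. All 6 arrays lay within 0.21, with a difference of -0.08 (95% interval without pairing -0.28 to 0.12). Its second probe set read 10.43, 10.22 and 10.28 in DKO, against 10.41, 10.28 and 10.39 in ApoE-KO, a difference of -0.05 (interval -0.26 to 0.17). Both Insr probe sets gave intervals that reach 0.

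Irs1, the adaptor that passes the receptor's signal to PI3-kinase, read 10.24, 10.26 and 10.18 in DKO, against 10.20, 10.64 and 10.36 in ApoE-KO. The DKO arrays lay close together and the ApoE-KO arrays spread around and above them, with differences of 0.04, -0.38 and -0.18. Without ApoE-KO replicate 2 the difference was -0.05, against -0.17 with all arrays (95% interval -0.46 to 0.12). Slc2a4, the gene of the insulin-responsive glucose transporter GLUT4, read 9.07, 8.92 and 8.87 in DKO, against 9.22, 8.97 and 9.20 in ApoE-KO. It was lower in DKO in each replicate number by 0.15, 0.05 and 0.33, and with a difference of -0.18 ± 0.14 (SD over 3 pairs) it did not pass with the block (limma, adjusted p = 0.297).

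The other genes of the insulin pathway stood evenly around 0. Of 31 listed, 27 were measured, with 14 lower and 13 higher in DKO, a median difference of -0.012 (from -0.064 without ApoE-KO replicate 3 to 0.033 without DKO replicate 3), and 0 passing in either direction without or with the block. The 4 with the smallest p included Socs3, a cytokine-induced inhibitor of insulin signalling, at 8.43, 8.43 and 8.34 in DKO, against 8.86, 9.18 and 8.54 in ApoE-KO, and Grb14, an adaptor that inhibits the insulin receptor, at 10.55, 10.18 and 10.03 in DKO, against 10.18, 9.62 and 9.73 in ApoE-KO. Socs3 thus differed by -0.46 and Grb14 by 0.41 (limma with the block, adjusted p = 0.129 and 0.0798). Trib3, an inhibitor of AKT, and Pik3r2, a regulatory subunit of PI3-kinase, both differed by -0.14. The downstream kinase genes Akt1 and Akt2, named after their values were seen, differed by -0.05 and -0.10.

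Of the metabolic genes, Car3 read 11.36, 12.50 and 11.90 in DKO, against 12.42, 13.20 and 12.84 in ApoE-KO. The groups overlapped by DKO replicate 2, which lay above ApoE-KO replicate 1, while the order of the replicate numbers was the same in both genotypes, with 1 lowest and 2 highest. Car3 averaged 11.92 ± 0.57 in DKO and 12.82 ± 0.39 in ApoE-KO (SD, n = 3 each), a DKO to ApoE-KO ratio of 0.536. The differences of -1.06, -0.70 and -0.94 averaged -0.90 ± 0.19 (SD over 3 pairs), and Car3 fell in the paired fit (limma with the replicate block, adjusted p = 0.0226; 95% interval -1.08 to -0.72). It did not pass without pairing (adjusted p = 0.861; interval -1.62 to -0.18), in the two-factor linear model without moderation (adjusted p = 0.437) or, with the block, without both replicate 2 arrays (adjusted p = 0.182).

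Gpd1, the cytosolic glycerol-3-phosphate dehydrogenase that makes the glycerol backbone of triglycerides from a glycolytic intermediate, read 9.83, 10.50 and 10.06 in DKO, against 10.80, 10.80 and 11.05 in ApoE-KO. All DKO arrays lay below all ApoE-KO arrays, with group means of 10.13 ± 0.34 in DKO and 10.88 ± 0.15 in ApoE-KO (SD, n = 3 each). The differences were uneven, at -0.97, -0.29 and -0.99, with a mean of -0.75 and a DKO to ApoE-KO ratio of 0.594. Gpd1 did not pass with the block (limma, adjusted p = 0.0827; 95% interval -1.07 to -0.43) or without it (adjusted p = 0.839; interval -1.16 to -0.34).

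Pck1, the cytosolic phosphoenolpyruvate carboxykinase of gluconeogenesis and, in fat, of glyceroneogenesis, read 9.43, 10.63 and 9.86 in DKO, against 9.77, 10.35 and 10.44 in ApoE-KO. DKO held both the lowest and the highest array. Aqp7, the aquaglyceroporin through which adipocytes release glycerol, read 8.35, 9.60 and 8.85 in DKO, against 8.74, 9.14 and 9.35 in ApoE-KO. Again DKO replicate 1 was the lowest and DKO replicate 2 the highest array. Within replicate numbers Pck1 differed by -0.34, 0.27 and -0.58 and Aqp7 by -0.39, 0.46 and -0.49. The means of -0.21 and -0.14 did not pass with the block (limma, adjusted p = 0.523 and 0.734), and without DKO replicate 1 they turned to 0.06 and 0.15.

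**Figure D2:**
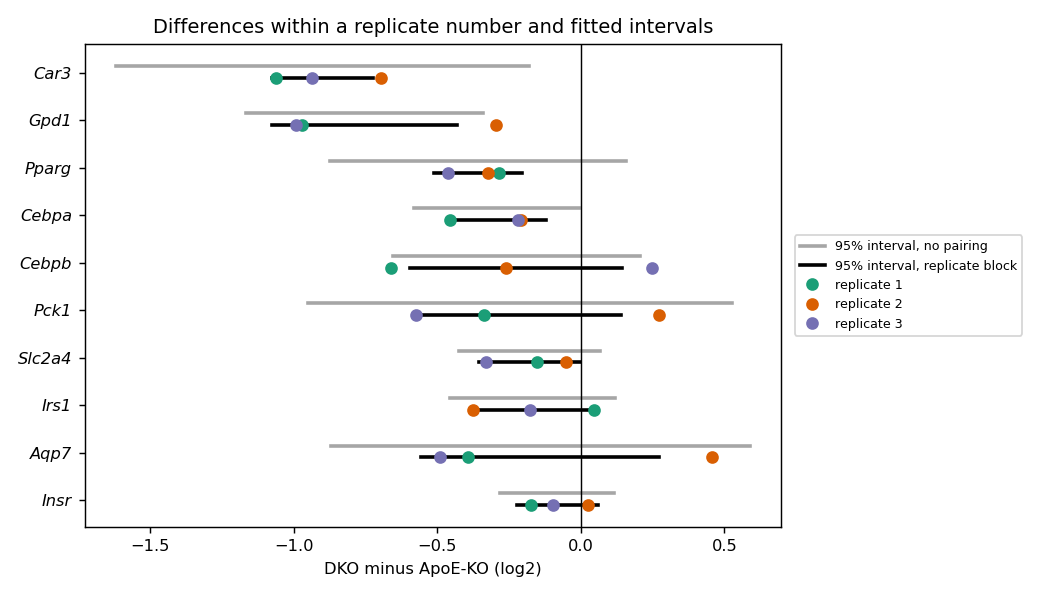
DKO minus ApoE-KO (log2, horizontal axis) for each of the 10 genes, with 1 point per replicate number and the 95% intervals of the limma fits without pairing (grey) and with the replicate block (black). Points of Car3, Gpd1, Pparg, Cebpa and Slc2a4 all lie left of 0, and the replicate 2 points of Pck1 and Aqp7 lie at 0.27 and 0.46.

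Of 15 other genes listed for glycerol and gluconeogenic metabolism, 14 were measured, 8 lower and 6 higher in DKO, with a median difference of -0.025 (-0.082 when DKO replicate 3 was left out and 0.0044 when DKO replicate 1 was). With the block 1 passed as lower (0.0792% of all probe sets) and 13 did not pass, and 0 passed without pairing. The one that fell was Pcx, the pyruvate carboxylase, at 8.81, 9.31 and 8.92 in DKO, against 10.03, 10.36 and 9.87 in ApoE-KO (-1.07; limma with the block, adjusted p = 0.0166). With the block but without both replicate 2 arrays, 0 probe sets passed over the whole table, Pcx among those that did not. Got2, a mitochondrial aspartate aminotransferase, and Pdk4, the kinase that restrains pyruvate dehydrogenase, differed by 0.28 and 0.40, and Fbp1, a gluconeogenic phosphatase, by -0.20. The related glycerol-3-phosphate dehydrogenase genes Gpd1l and Gpd2 differed by 0.09 and -0.13, the mitochondrial carboxykinase gene Pck2 by 0.03, and the glycerol channel genes Aqp3 and Aqp9 by -0.10 and -0.04; these 5 were named after their values were seen.

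Of the 15 other carbonic anhydrase genes, all measured, 11 were lower and 4 higher in DKO, with a median difference of -0.10 (from -0.11 without DKO replicate 3 to -0.046 without ApoE-KO replicate 2) and 0 passing without or with the block. The largest difference among the 4 with the smallest p was that of Car8, a member without catalytic activity, at 9.30, 9.33 and 9.47 in DKO, against 8.45, 8.96 and 8.99 in ApoE-KO. Its DKO arrays all lay above the ApoE-KO arrays, opposite to Car3, with a difference of 0.57 (limma with the block, adjusted p = 0.0820). It passed with the block without both replicate 1 arrays (0.43, adjusted p = 0.0373), a fit in which 415 probe sets passed. Car7, Car6 and Car1, 3 further carbonic anhydrase genes, differed by -0.16, -0.13 and -0.10.

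Genes of the mature adipocyte outside the 10 were lower in DKO in 15 of 19 measured (22 listed), with a median difference of -0.35. Their mean level was 9.12, 9.83 and 9.45 in DKO, against 9.48, 10.04 and 9.89 in ApoE-KO. With the block 3 passed as lower (0.0792% of all probe sets), 0 as higher (0.095%) and 16 did not pass. They were Retn, the adipocyte hormone resistin (-1.53, adjusted p = 0.0226), and the lipid droplet genes Cidec and Lgals12 (-0.74 and -0.68, adjusted p = 0.0467 for both; limma), and 0 passed without pairing. With the block, 8 of the 19 passed without both replicate 1 arrays, 0 without both replicate 2 arrays and 2 without both replicate 3 arrays (Retn as lower and Nnat as higher). Over all 25254 probe sets, 415, 0 and 48 passed in the same fits, in that order. Unpaired the median was -0.18 without DKO replicate 1 and -0.56 without DKO replicate 2. Acvr1c, the activin receptor ALK7 of adipocytes, and Agpat2, an acyltransferase of triglyceride synthesis, differed by -0.47 and -0.41, while Nnat, a proteolipid gene induced in adipogenesis, differed by 0.66. Also higher in DKO, and named after their values were seen, were Lep (0.36), Trarg1 (0.29) and Plin4 (0.07). The tissue left on the vessel is not given. For the genes lower in DKO, fewer adipocytes in a sample and less RNA per adipocyte cannot be told apart.

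**Figure D3:**
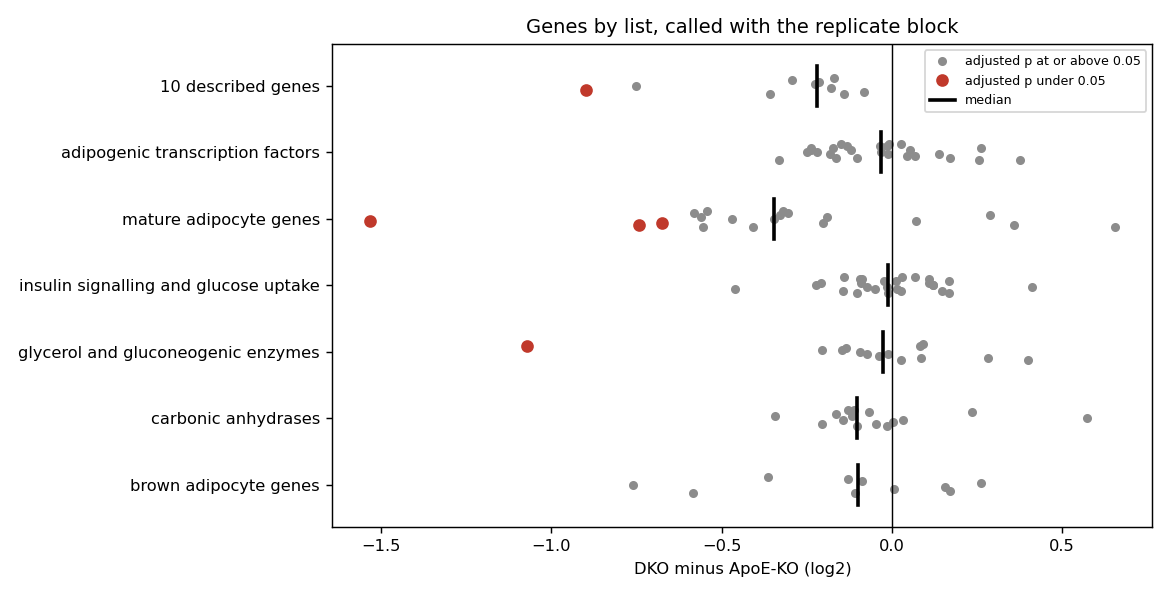
DKO minus ApoE-KO (log2, horizontal axis) for the 10 genes and, below them, for the other measured genes of 6 lists, 1 point per gene, with red points at an adjusted p under 0.05 in the limma fit with the replicate block and black bars at medians. The medians of the 10 genes and of the mature adipocyte genes are -0.22 and -0.35, and those of the insulin signalling and transcription factor lists are -0.012 and -0.034.

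Set against that mean of 19 adipocyte genes, the 10 genes fell into different positions. The 19 differed by -0.35, -0.21 and -0.45 on average in replicate numbers 1 to 3, and this was subtracted from each gene's own difference. Pparg then stood at 0.07, -0.11 and -0.02 and Cebpa at -0.10, 0.00 and 0.23, on both sides of 0. Car3 stood at -0.71, -0.48 and -0.49 and Gpd1 at -0.62, -0.08 and -0.55. Slc2a4 stood at 0.20, 0.16 and 0.12 and Insr at 0.18, 0.24 and 0.35, above the adipocyte mean in each number. Since that mean was below 0 in each number, any gene with a difference near 0 had to stand above it. Insr's own differences were -0.17, 0.02 and -0.10, so its position restates the list mean. On both sides of 0 were also Cebpb (-0.31, -0.05 and 0.69), Irs1 (0.40, -0.17 and 0.27), Pck1 (0.01, 0.48 and -0.13) and Aqp7 (-0.04, 0.67 and -0.04). Without Retn, Cidec and Lgals12 in the mean, the remaining 16 genes differed by -0.24, -0.06 and -0.35, and Car3 stood at -0.83, -0.64 and -0.59, Gpd1 at -0.74, -0.24 and -0.64, Pparg at -0.05, -0.27 and -0.11 and Slc2a4 at 0.08, 0.01 and 0.02. Retn, Cidec and Lgals12 were left out because they had passed as lower, so the mean had to rise and all 10 genes had to move down against it. This subtraction was chosen after the data were seen and carries no test.

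Across the single arrays, DKO replicate 1 held the lowest level of 7 of the 10 genes (Pparg, Cebpa, Cebpb, Pck1, Gpd1, Car3 and Aqp7). ApoE-KO replicate 2 held the highest level of 4, Pparg, Cebpa, Irs1 and Car3. The median deviation of the 10 genes from their own means was -0.43, 0.05 and -0.18 in DKO replicates 1 to 3, against 0.09, 0.28 and 0.22 in ApoE-KO replicates 1 to 3. The mean of 6 macrophage markers was also lowest in DKO replicate 1, at 9.35, with 9.92 to 10.42 in the other 5 arrays, and their part in the levels of the 10 genes was not tested.

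**Figure D4:**
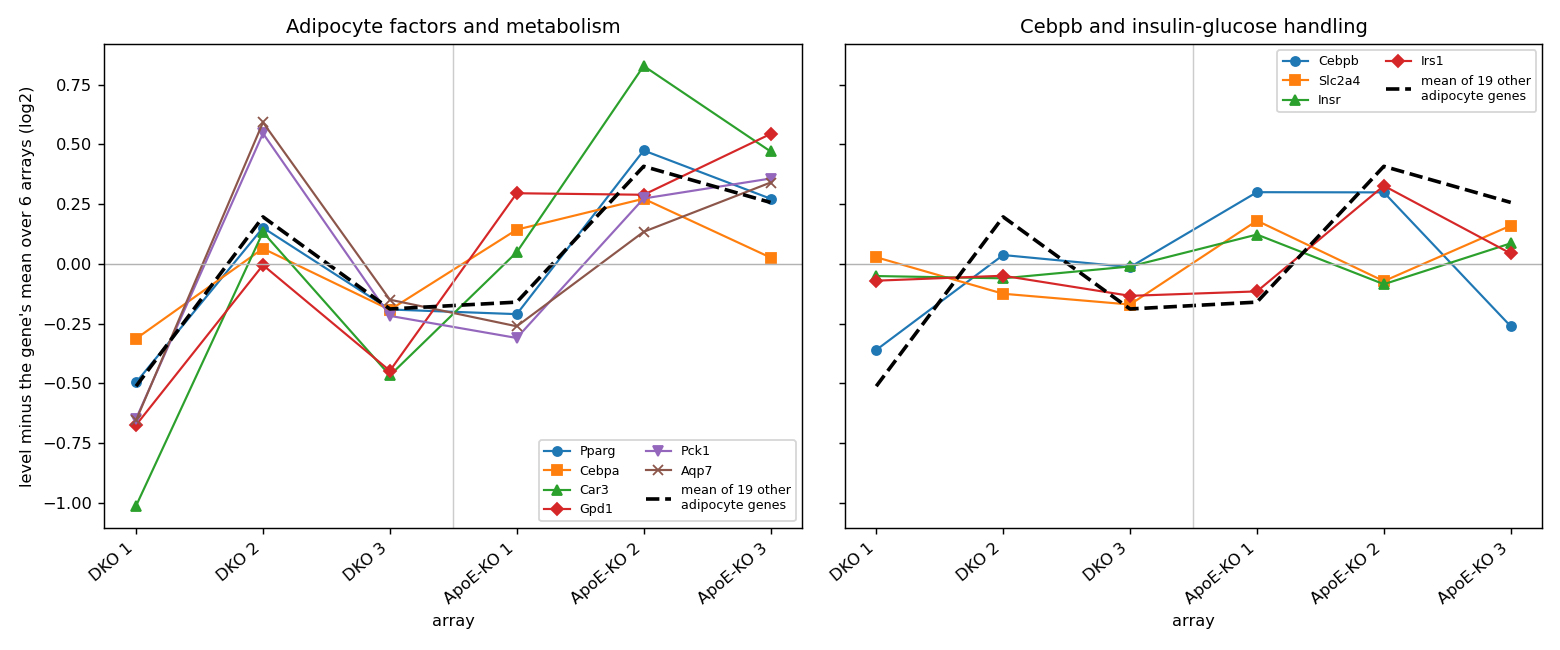
Level minus the gene's own mean over the 6 arrays (log2, vertical axis) in each array, for 6 adipocyte factor and metabolic genes on the left and for Cebpb, Slc2a4, Insr and Irs1 on the right; the dashed line is the mean of 19 other adipocyte genes. The 6 genes on the left dip in DKO replicate 1 with the dashed line, whereas Slc2a4 lies slightly above its own mean there.

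The genes most alike in level over the 6 arrays were looked up for the 7 of the 10 genes whose arrays spanned at least 0.5, among 4150 named genes that also did, with Pearson's r as a description. For Pparg they were Cidec (r = 0.999), a lipid droplet protein gene, and Chst1, a sulfotransferase gene (r = 0.991). For Car3 they were Dgat2, which completes triglyceride synthesis (r = 0.990), and Lpl, the lipoprotein lipase gene (r = 0.986). Pck1 and Aqp7 shared Prkar2b, a regulatory subunit of protein kinase A, at r = 0.986 and 0.993, followed by Scd1, a fatty acid desaturase gene, for Pck1 (r = 0.961) and by Cox7a1, a cytochrome oxidase subunit gene of muscle and brown fat, for Aqp7 (r = 0.962). For Gpd1 they were Robo4, an endothelial receptor gene, and Otop1, a proton channel gene (both r = 0.984), for Cebpa Fcna, the ficolin A gene, and Fthl17f (r = 0.979 and 0.978), and for Cebpb Klhdc7a and Mknk2, the gene of a kinase of a translation initiation factor (r = 0.964 and 0.952). Among the 10 themselves the most alike were Pck1 and Aqp7 (r = 0.987) and Car3 and Pparg (r = 0.946). Each is the highest of many values over 6 arrays that share genotype and replicate number.

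Markers of brown fat, muscle and other tissues were set beside these levels. Of 10 brown adipocyte genes, 6 were lower and 4 higher in DKO, 0 passed, and their mean ran from 8.56 to 9.03 in DKO and from 8.75 to 9.13 in ApoE-KO. Elovl3, a fatty acid elongase (-0.76), Lhx8, a homeobox factor (-0.11), Prdm16, the brown fat coregulator (0.26), and Ucp1, the uncoupling protein (-0.58), had the smallest p. Elovl3 passed with the block without both replicate 1 arrays (-0.68, adjusted p = 0.0464), a fit in which 415 probe sets passed. The median difference of the 10 brown adipocyte genes, -0.10, was -0.19 when DKO replicate 2 was left out and 0.0028 when DKO replicate 3 was. Skeletal muscle, which also makes Car3 and Slc2a4, had a lower group mean in DKO for 7 of 7 markers, with 0 passing. Only Acta1 and Myh1 of these were lower in every replicate number. The mean of the 7 markers was 7.31 to 7.96 in DKO and 7.35 to 8.29 in ApoE-KO. In replicate 1 it was 7.37 in DKO against 7.35 in ApoE-KO. Those muscle means were highest in the replicate 3 array of each group. Heart muscle markers had a lower group mean in DKO for 5 of 5 (mean 7.85 to 8.37 in DKO and 7.55 to 8.72 in ApoE-KO). Only Nppa of these was lower in every replicate number, and in replicate 1 the heart mean was 7.85 in DKO against 7.55 in ApoE-KO. Liver markers, of which 4 of 5 were measured, were lower in 3 of 4 (6.48 to 6.61 in DKO and 6.53 to 6.64 in ApoE-KO). Of the heart and liver markers 0 passed. Their part in the differences of the 10 genes was not tested.

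Among markers of the artery wall, Acta2, the smooth muscle actin gene, had a level of 14.01 to 14.04 in DKO and 13.97 to 14.06 in ApoE-KO. Its difference was the smallest of the 7 smooth muscle markers, among which Lmod1 differed by 0.26 and Des by -0.18. Group means were higher in DKO for 5 of 7 smooth muscle, 5 of 6 endothelial and 4 of 6 fibroblast markers. The median differences of these 3 lists were 0.058, 0.11 and 0.044. Means of smooth muscle, endothelial and fibroblast markers ran from 12.50 to 12.68, 10.16 to 10.56 and 12.10 to 12.47 in DKO, and from 12.43 to 12.66, 10.00 to 10.59 and 12.16 to 12.44 in ApoE-KO, and 0 of these 19 markers or of the 6 macrophage markers passed. Lung epithelium markers stood far higher in the replicate 3 array of each group, with a mean of 10.19 in DKO and 10.78 in ApoE-KO, against 6.51 to 6.61 in the other 4 arrays. Without both replicate 3 arrays, the paired difference of Car3 was -0.88 (limma with the block, adjusted p = 0.0259), that of Gpd1 -0.63 and that of Pparg -0.30. In the same fit Cebpb differed by -0.46, Cebpa by -0.33, Irs1 by -0.17 and Slc2a4 by -0.10. Insr differed by -0.07, Pck1 by -0.03 and Aqp7 by 0.03. The part of the lung markers in these values was not tested. No array was a copy of another, with correlations between arrays of 0.983 to 0.995.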

How the data were processed

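The authors deposited log2 intensities of 25254 probe sets as a single table. The submitters' processing notes name RMA, Partek and the mouse build mm9, with no version, and do not say whether a batch effect was taken out. The median of an array was 8.01 or 8.02. Of the probe sets, 21496 name 1 gene in the platform annotation, 1565 several and 2193 none; only the first kind was named, and 0 symbols changed through the RefSeq table. Members and lists were chosen with earlier results of these data known.

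DKO minus ApoE-KO was tested on all probe sets with limma (version 3.58.1, R version 4.3.3; lmFit and eBayes with trend), two-sided, with no filter. Intervals are 95% intervals of the fits. With 3 arrays per group the smallest exact permutation p is 0.1, and the number of arrays limits the precision. The study's ANOVA had a batch factor, but no label names a batch, so the unpaired fit came first and the replicate number was a block in the second. That numbers pair the arrays rests on the deviations from the group means (same-number correlations 0.60, 0.50 and 0.64, other combinations -0.53 to -0.10), not on a label. Named beside the 10 genes are, per pathway list, the 4 genes with the smallest unadjusted p and any that passed, all marker lists, and, per gene, the 2 most alike over the arrays. Alternatives were a 40th percentile filter, array weights, median centring, a second quantile normalization, eBayes with no trend or with the robust option, the mean of a gene's probe sets, an unmoderated two-factor model and left-out arrays.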

Additional observations from a re-analysis of the deposited data

How the results depend on the processing

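Means of the 10 genes were lower in DKO in at least 8 of 10 under every alternative run. Without pairing 0 probe sets passed over the whole table, and 44 with the replicate block; leaving out 1 array gave 0 to 8, and with the replicate block 415 passed without replicate 1, 0 without replicate 2 and 48 without replicate 3. Of the 10 genes 0 passed unpaired, also with 1 array left out. With the replicate block 1 passed (Car3), 2 without replicate 1 (Car3 and Pparg, at -0.39, adjusted p = 0.0483), 0 without replicate 2 and 1 without replicate 3. The unmoderated two-factor model passed 0 probe sets. The replicate block changed no other call among the 10. The median difference over the 10 genes was -0.22, ran from -0.44 without DKO replicate 2 to -0.18 without ApoE-KO replicate 2, and was -0.36 with the block without replicate 2. Aqp7 turned to 0.062 with array weights and to 0.032 with the block without replicate 3; leaving out 1 array moved it between -0.47 and 0.15, and Pck1 between -0.54 and 0.057. Leaving out 1 array breaks its pair. The causes were not tested.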
